A study of Mus musculus with 4 samples.

Results

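Binding of the CP2-family transcription factor Tfcp2l1 was examined at 9 mouse genes that encode proteins of adherens and tight junctions other than claudins: Cdh1, Epcam, F11r, Ocln, Marveld2, Marveld3, Tjp1, Tjp3 and Cgn. Their peaks were taken by position: the summit had to lie inside the gene or at most 50 kb from one of its ends (RefSeq genes of GRCm38). This gave 74 of the 57614 peaks of repeat 1 and 61 of the 51610 peaks of repeat 2, for 9 of 21883 protein-coding genes. All 4 libraries came from wild-type mouse embryonic stem cells without further treatment, cultured in N2 and B27 medium containing LIF at 1000 units/mL, the GSK3 inhibitor CHIR99021 at 3 µM and the MEK inhibitor PD0325901 at 1 µM (2i with LIF). Each of the 2 repeats was made of a ChIP library, made with 10 µg of a custom-made antibody to the mouse protein, and an input library. The labels name no cell line, and nothing says whether the repeats were separate cultures. There was 1 culture condition, so the comparisons are between repeats and between genes, and RNA, by which the cell type could be checked against its markers, was not analysed here.

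Adherens junctions hold neighbouring epithelial cells together through E-cadherin, the product of Cdh1, which binds the same molecule on the next cell and is tied to actin inside the cell by catenins. Tight junctions lie next to them and limit the passage of solutes between cells. They are built from membrane proteins (claudins, occludin and its relatives of the MARVEL family, and JAM proteins) that are held by cytoplasmic scaffolds such as the zonula occludens proteins and cingulin. Naive mouse embryonic stem cells carry E-cadherin and EpCAM on their surface and grow as compact colonies.

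ChIP depth after duplicate filtering was 19353473 tags in repeat 1 and 22555373 in repeat 2, and input depth was 18446758 and 23825930. Peaks that had 1 bp or more in common between the lists were called shared. Fold enrichment compares the ChIP signal at a summit with a local background from input, as MACS gave it, and tags are the ChIP tags in the peak. Both are the authors' deposited values for single peaks. Values are given as repeat 1 and then repeat 2. Positions are intervals of repeat 1 in GRCm38, and exons and introns could not be told apart.

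Shared peaks were found at 8 of the 9 genes, all but Ocln, which encodes occludin. Over all protein-coding genes the same rule was met by 80.6%, so a count of 8 of 9 is near the background. Counts differed widely among the 9 genes. Cdh1 had 16 shared peaks, Tjp3 11, Epcam 10, F11r 7, Tjp1 5, Cgn 3, Marveld2 2, Marveld3 1 and Ocln 0, against a median of 4 for all genes. More shared peaks than that median were found at 5 of the 9 genes and at 41.4% of all genes. A shared summit inside the gene itself was found at 7 of the 9 genes, against 44.8% of all genes. The median length of the 9 genes was 27.0 kb, against 17.2 kb for all genes, and a longer gene offers more room for a summit. Per 100 kb of gene and window the 9 genes had a median of 2.35 shared peaks and all genes 2.58. With 16 shared peaks, Cdh1 had more than 97.6% of all protein-coding genes, and by shared peaks per 100 kb (9.59) it stood above 94.4% of them. Tjp3 (9.29 per 100 kb) and Epcam (8.68 per 100 kb) stood above 93.7% and 92.0% of genes on the same scale. These counts are of repeat 1 peaks. Counted in repeat 2, shared peaks numbered 14 at Cdh1, 11 at Tjp3 and 10 at Epcam, so the order of these genes per 100 kb depends on the list counted.

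**Figure D1:**
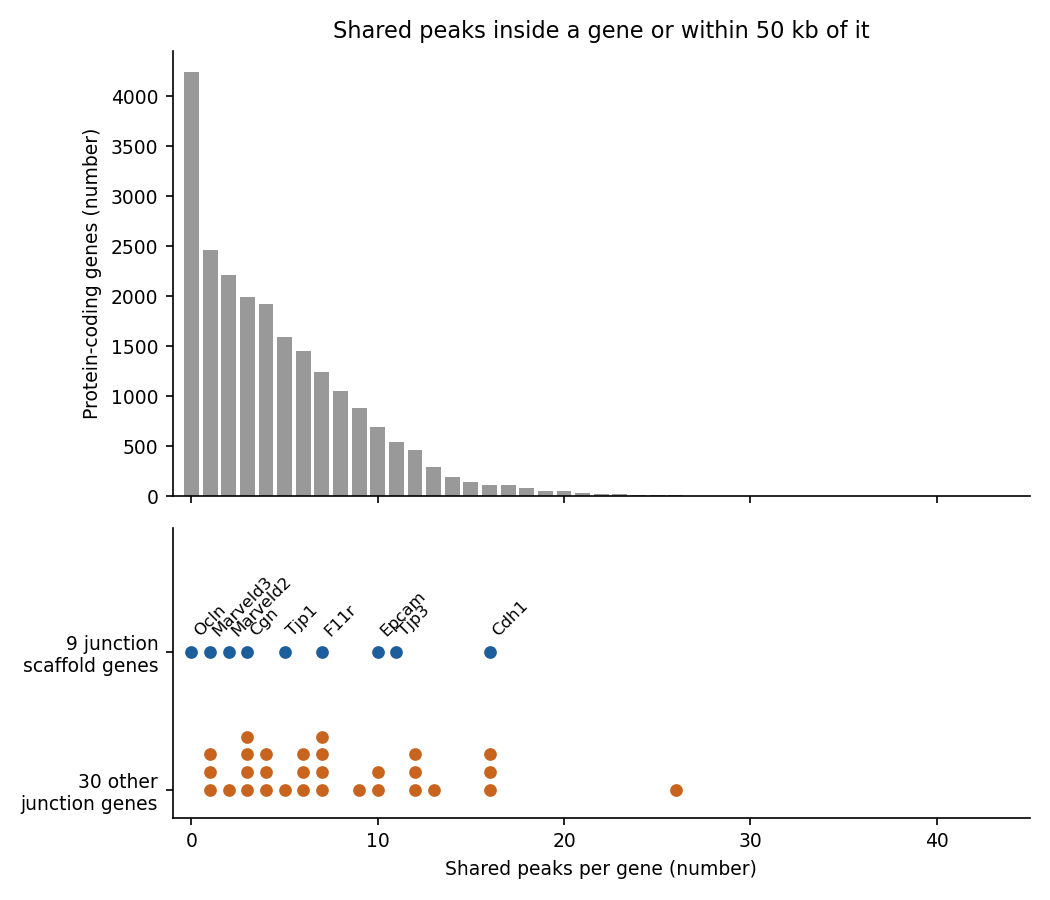
Upper panel, number of protein-coding genes (y axis) with each number of shared peaks inside the gene or within 50 kb (x axis). Lower panel, the 9 junction scaffold genes and the 30 other junction genes on the same x axis, 1 point per gene; stacked points have equal counts. The 9 genes run from 0 (Ocln) to 16 (Cdh1).

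The peaks at these genes were recovered in the other repeat about as often as peaks elsewhere. Of the 74 peaks of repeat 1, 55 were shared (74.3%, exact 95% binomial interval 62.8% to 83.8%), against 76.1% of the whole list. Of the 61 peaks of repeat 2, 53 were shared (86.9%, 75.8% to 94.2%), against 84.8%. These intervals cover counting error only. Matched summits lay a median of 36 bp apart, and 28 bp over all shared peaks. Shared peaks at the 9 genes had a median fold enrichment of 12.1 in repeat 1 and 10.6 in repeat 2, where all shared peaks had 15.5 and 11.5. The 19 peaks of repeat 1 without a match were weak, with 21 to 48 tags and 6.17-fold to 11.11-fold enrichment. The 8 unmatched peaks of repeat 2 had 22 to 59 tags and 5.49-fold to 12.56-fold enrichment. Shared peaks at these genes overlapped both ranges, starting at 24 tags and 6-fold in repeat 1 and at 22 tags and 5.1-fold in repeat 2. A shared peak within the top 10% of both lists by fold enrichment (at least 43.4-fold and 32.2-fold) lay at 3 of the 9 genes, Epcam, Cgn and F11r, against 31.7% of all genes. By peaks, this was 3 of 55, or 5.45%, against 9.71% of all shared peaks.

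**Figure D2:**
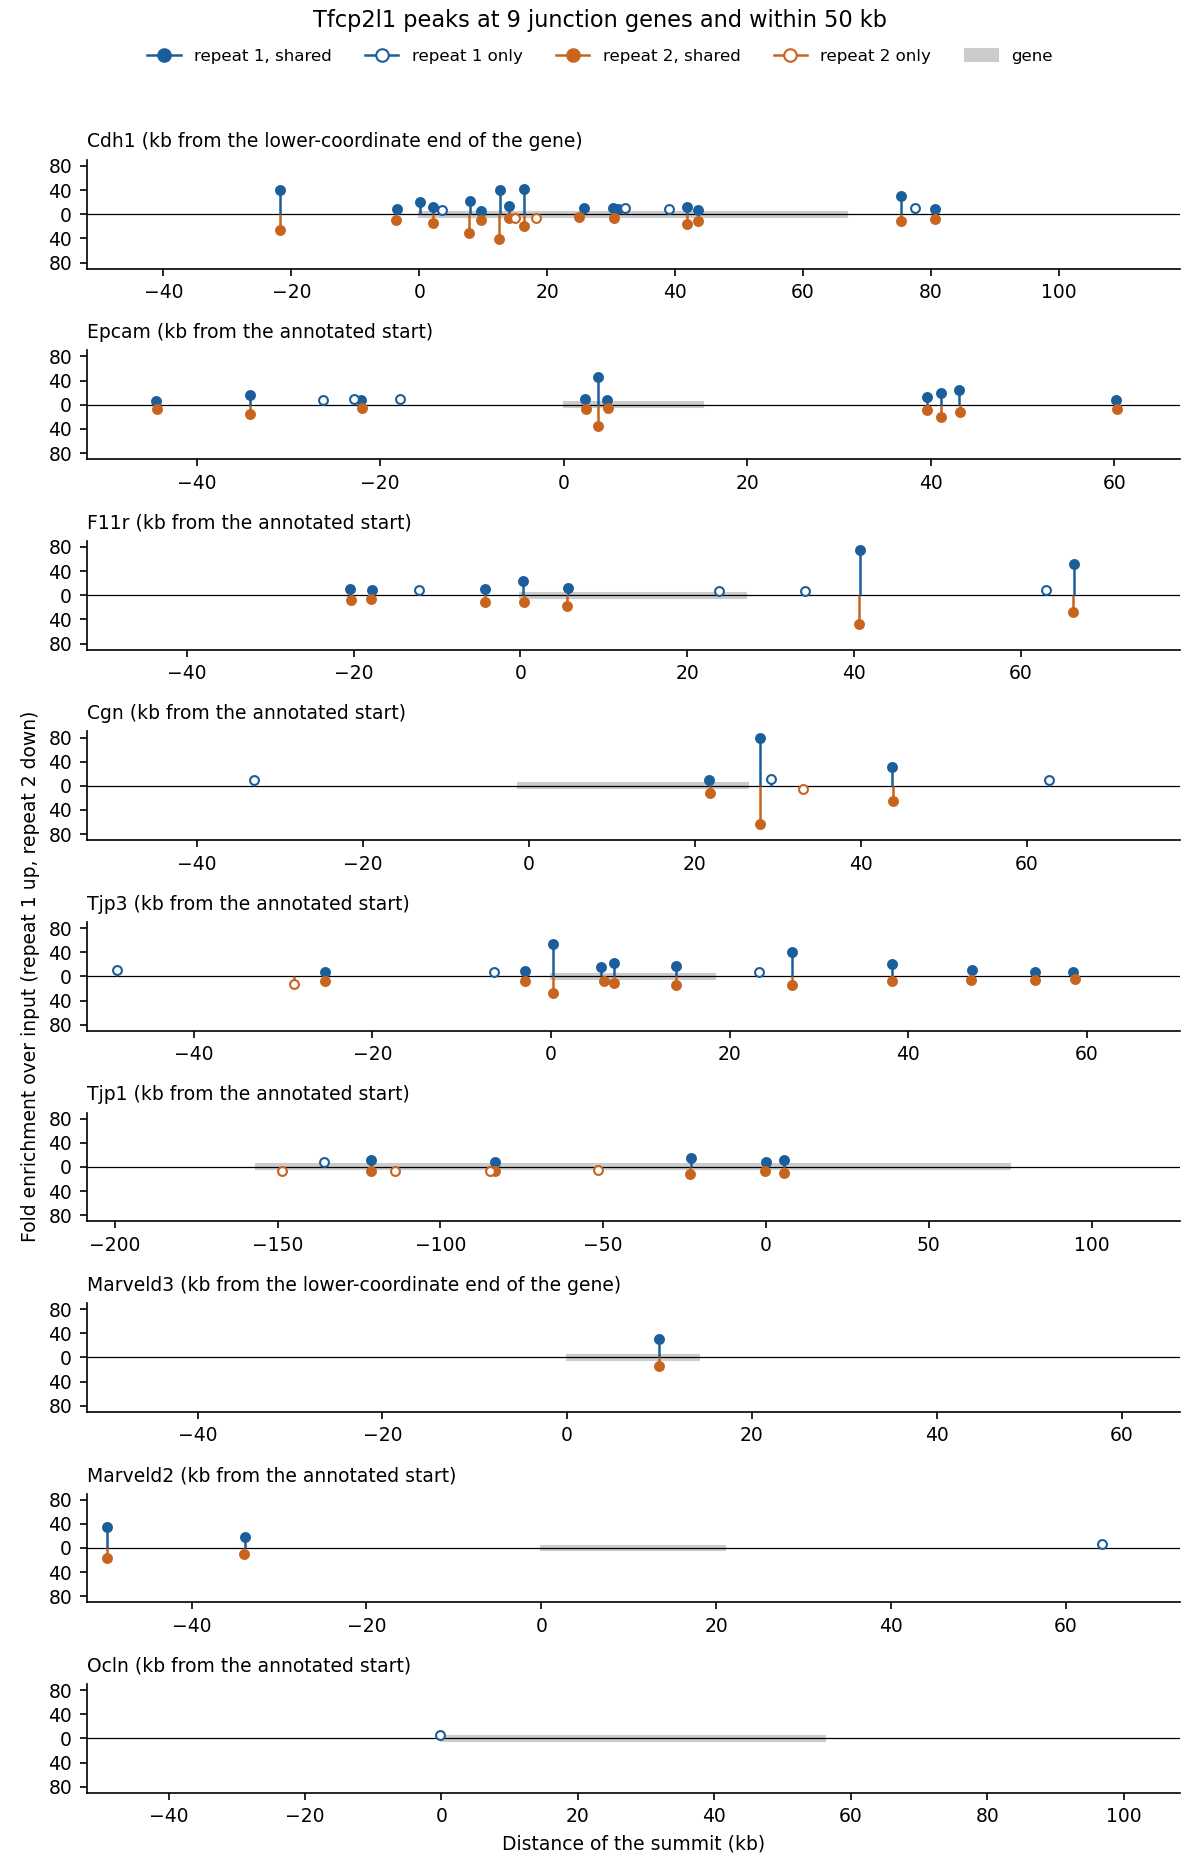
Each panel shows 1 gene (grey bar) with the summits of peaks inside it or within 50 kb. The x axis is the distance in kb from the annotated start in the direction of transcription, or from the lower-coordinate end for Cdh1 and Marveld3. The y axis is the fold enrichment over input, upwards for repeat 1 and downwards for repeat 2; filled points are shared peaks and open points were found in 1 repeat. Cdh1 carries a row of summits along the gene, while at Cgn and F11r the tallest peaks stand beyond the gene.

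Annotated promoters were searched first, since a peak there can be tied to a start site. RefSeq promoter sequences (GRCm38.p6, 250 bases before to 50 bases after a start) were at hand for 7 of the 9 genes. A shared peak overlapped a promoter at 3 of the 7 (F11r, Tjp1 and Tjp3), against 24.9% of genes with an entry. The 250 bases before the start of these 3 genes are shown because they are stretches of promoter inside shared peaks. Tjp3 has 2 annotated starts, both under its peak, and only the stretch of the outer start is shown. The summits of that peak (81291331 and 81291325) lay in the window of the inner start, 81291218 to 81291517. At F11r the summits were 0.338 and 0.385 kb after the start, outside the stretch shown. At Tjp1 the summit of repeat 1 was 0.121 kb after the start, outside the stretch, and that of repeat 2 was inside it, at -0.165 kb. Capitals mark matches, on either strand, to CCNG, any 6 bases, CCNG, a pattern modelled on a spaced pair of CP2-type core sites. N stands for any base, so a match need not be a pair of such sites. The F11r stretch is chr1:171437311-171437560 (plus strand), that of Tjp1 is chr7:65371245-65371494 (minus strand) and that of Tjp3 is chr10:81291582-81291831 (minus strand, outer start; no match).
F11r: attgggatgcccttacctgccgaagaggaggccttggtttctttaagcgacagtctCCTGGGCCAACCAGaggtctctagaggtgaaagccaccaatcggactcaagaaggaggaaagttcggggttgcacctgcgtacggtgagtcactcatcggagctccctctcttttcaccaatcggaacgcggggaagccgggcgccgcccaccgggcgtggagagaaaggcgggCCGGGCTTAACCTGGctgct
Tjp1: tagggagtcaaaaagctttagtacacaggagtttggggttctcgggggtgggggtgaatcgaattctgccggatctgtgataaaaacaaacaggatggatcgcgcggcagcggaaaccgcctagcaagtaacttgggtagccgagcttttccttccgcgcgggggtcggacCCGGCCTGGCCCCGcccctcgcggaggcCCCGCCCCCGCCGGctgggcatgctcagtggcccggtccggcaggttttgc
Tjp3: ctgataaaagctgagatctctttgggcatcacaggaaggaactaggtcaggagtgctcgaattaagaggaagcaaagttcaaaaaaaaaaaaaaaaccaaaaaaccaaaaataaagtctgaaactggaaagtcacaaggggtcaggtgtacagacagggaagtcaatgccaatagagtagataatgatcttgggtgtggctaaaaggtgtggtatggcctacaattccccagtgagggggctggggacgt

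Counted over the 300-base windows, F11r had 3 matches to this motif. Counted from the start, they lay at -194 to -181, at -20 to -7 and, on the opposite strand and overlapping the second, at -19 to -6. Tjp1 had 2 matches, at -79 to -66 and -51 to -38, in a window of 65.3% GC, where the median over all windows was 56.3%. At Tjp3, the window of the outer start had none and that of the inner start had 1, at 25 to 38 bases after it. The windows of Epcam, Cgn, Ocln and Marveld2, over which no shared peak lay, had none. Of all 21262 promoter windows, 34.7% held this motif, 49.9% of those under a shared peak and 29.9% of the others. Base composition was not matched between these groups. A looser form (CNNG, any 6 bases, CNNG) was found in 75.1% of all windows and at 6 of the 7 genes with an entry. Epcam had no match, and at Ocln the window of 1 of its 2 starts had none. The Grainyhead motif AACCGGTT, known as a site of relatives of Tfcp2l1, was in 0.179% of windows and in no window of the 7 genes with an entry. A match describes letters and does not show a bound site.

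Cdh1 (chromosome 8, 106603350 to 106670247) had the most shared peaks among the 9 genes, 16 counted in repeat 1 and 14 in repeat 2. Of its 16 shared peaks, 12 had summits inside the gene, and all of these lay in the first 43.7 kb from the lower-coordinate end of a gene of 66.9 kb. The median gap between neighbouring shared summits was 3.71 kb. The strongest, inside the gene at 106615292 to 106616514, held 151 and 196 tags and was enriched 40.5-fold and 41.1-fold. The next by rank lay 21.7 kb below the gene, at 106581253 to 106582175, with 121 and 124 tags (39.6-fold and 25.4-fold). It was followed by another peak inside the gene, at 106619355 to 106620396, which held 123 and 95 tags (41.1-fold and 19.0-fold). None of the 3 reached the top 10% of both lists. The strongest did so in repeat 2 (limit 32.2-fold) and fell short in repeat 1 (limit 43.4-fold). Cdh1 thus stood out more by the number of its peaks than by their height. That number fell from 16 to 8 with fold enrichment of at least 10 in both lists, and to 9 with a score of at least 100. Counts of all genes under these limits were not made.

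The other 13 shared peaks of Cdh1 ran from 6-fold to 29.6-fold in repeat 1 and from 5.10-fold to 31.4-fold in repeat 2. Among them, a peak at the lower-coordinate end itself (106602987 to 106605025, summit 0.179 kb inside the gene) had 114 tags and 19.8-fold enrichment in repeat 1. In repeat 2 it was joined with its neighbour into 1 interval, 106603250 to 106606123, of 189 tags and 14.1-fold, whose summit lay 2028 bp further in. Such joining occurred for 2 pairs of peaks of repeat 1, so 16 peaks of repeat 1 correspond to 14 of repeat 2. A further 4 peaks of repeat 1 (7.55-fold to 11.11-fold) and 2 of repeat 2 (5.49-fold and 6.28-fold) had no match. The 2 shared peaks above the gene were nearer to Tango6. The gene for P-cadherin, Cdh3, ends 46.4 kb below Cdh1, and 4 shared peaks, those at 106581253 and 106599319 among them, fell in the windows of both genes.

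Epcam (chromosome 17, 87635979 to 87651127), which encodes a homotypic adhesion molecule of epithelial and embryonic stem cells, had 1 strong peak inside the gene. It lay 3.71 kb after the annotated start, at 87639083 to 87640031, with 154 and 164 tags and 46.5-fold and 35.4-fold enrichment, and its summits were 2 bp apart. Weaker shared peaks stood on either side of it within the gene, with 37 and 30 tags (10.3-fold and 6.43-fold) and 40 and 36 tags (8.58-fold and 6.07-fold). Upstream lay 3 shared peaks, of 6.82-fold to 15.5-fold in repeat 1. No peak of either repeat overlapped the promoter window of Epcam. A shared peak just outside the window, 50.4 kb upstream at 87585062 to 87586058, was stronger than any inside it in both repeats (99.7-fold and 36.1-fold), and Epcam was its nearest protein-coding gene.

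F11r (chromosome 1, 171437561 to 171464593) encodes JAM-A, an immunoglobulin-like membrane protein of tight junctions. Its strongest peak lay 13.6 kb past the end of the gene, at 171476731 to 171478825, with no protein-coding gene nearer. It held 370 and 382 tags, the most of any shared peak at the 9 genes, with 74.9-fold and 47.9-fold enrichment. A second downstream peak, inside Alyref2 and 39.3 kb from F11r (171503147 to 171504631), held 245 and 163 tags (51.6-fold and 26.9-fold). The next covered the F11r promoter shown above (171437191 to 171438376). It held 96 and 85 tags, with 23.1-fold and 10.99-fold enrichment and the summit 0.338 kb after the start. The other 4 shared peaks had 24 to 54 tags in repeat 1 and 31 to 71 in repeat 2. The window meets that of Nectin4, the gene of another adhesion molecule, and 4 shared peaks fell in both.

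The occludin family, membrane proteins with a MARVEL domain, had the fewest peaks. Ocln (chromosome 13, 100496504 to 100552718) had 1 weak peak in repeat 1, at 100552434 to 100553080 over its promoter, with 21 tags, 6.17-fold enrichment and an FDR of 0.11%; no peak at the 9 genes had a higher FDR. Repeat 2 had no peak in the window. The nearest shared peak beyond it was 51.0 kb away and nearer to Naip1. Of all protein-coding genes, 19.4% had no shared peak in their window. A peak of repeat 1 alone was found at all 9 genes (85.5% of all genes) and of repeat 2 alone at 8 (82.9%).

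Marveld2 (chromosome 13, 100595957 to 100616971), the gene of tricellulin, which seals the corners where cells of an epithelium meet, lies 43.2 kb from Ocln, so their windows overlap and share the weak peak of repeat 1. No peak of either repeat lay inside Marveld2 or within 10 kb of it. Its 2 shared peaks were upstream and belonged by distance to other genes. One was inside Rad17, 33.9 kb away (81 and 61 tags, 18.8-fold and 10.6-fold). The other was near Ak6 at 49.7 kb, just inside the limit (100 and 72 tags, 34.3-fold and 16.1-fold), and the next one out, at 53.6 kb, had 24.6-fold and 13.8-fold enrichment. Marveld3 (chromosome 8, 109947909 to 109962205), whose product belongs to the same family, had a single peak in each repeat. It lay inside the gene at 109957208 to 109958306, with 85 and 59 tags and 29.95-fold and 14.9-fold enrichment, and both repeats placed the summit on the same base.

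The scaffold genes differed from one another. Tjp1 (chromosome 7, 65296165 to 65527850) encodes ZO-1, which links tight junction membrane proteins to actin, and is the longest of the 9 genes at 232 kb. All 5 of its shared peaks lay inside it and were weak. The strongest (65393657 to 65394843) held 60 and 67 tags, with 14.8-fold and 12.2-fold enrichment. The next had 32 and 35 tags (65365503 to 65366109, 11.1-fold and 9.42-fold) and 44 and 29 tags (65491953 to 65492772, 10.9-fold and 6.77-fold). A peak over the promoter shown above, which lies inside the gene as annotated, had 35 and 30 tags (65370841 to 65371758, 7.73-fold and 6.67-fold). Counted from the start of that promoter, the strongest peak (65393657) was at -23.1 kb, upstream of it. The peaks at 65454133 and 65491953 were also upstream, at -83.3 kb and -121 kb. Per 100 kb Tjp1 had 1.51 shared peaks, more than 36.5% of genes.

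Tjp3 (chromosome 10, 81273188 to 81291581) encodes ZO-3, a shorter relative of ZO-1 found at epithelial tight junctions, and its window holds 9 other protein-coding genes. Its strongest peak covered both annotated starts, at 81290696 to 81291905, with 161 and 106 tags and 52.8-fold and 27.5-fold enrichment. The summit lay 0.250 kb after the outer start. The next by rank were 1 near Mrpl54 (81263710 to 81265326, 168 and 59 tags, 39.7-fold and 14.6-fold) and 1 inside Tjp3 (81277074 to 81277826, 51 and 62 tags, 17.9-fold and 14.9-fold). Of the 11 shared peaks, Tjp3 was the nearest gene for 4.

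Cgn (chromosome 3, 94760069 to 94787725) encodes cingulin, a cytoplasmic tight junction protein that binds ZO proteins and the cytoskeleton. It had the strongest peak of the 9 genes by fold enrichment in both repeats. That peak lay 1.46 kb past the 3′ end of the gene, at 94757899 to 94759167, with 241 and 234 tags and 79.7-fold and 64.0-fold enrichment, above 97.2% and 98.1% of the peaks of the lists. A second lay 17.4 kb past the end (94742086 to 94743151, 95 and 128 tags, 30.4-fold and 25.9-fold), and a weak one inside the gene (94764223 to 94765175) had 27 and 43 tags (9.66-fold and 12.3-fold). No peak of either repeat overlapped the promoter window. Within the 50 kb limit, Cgn and F11r thus had their tallest peaks past the gene and Marveld2 upstream of it. Those of Cdh1, Epcam, Tjp1, Tjp3 and Marveld3 were inside. For Epcam this depends on the limit, since the peak 50.4 kb upstream was taller in both repeats (99.7-fold and 36.1-fold).

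**Figure D3:**
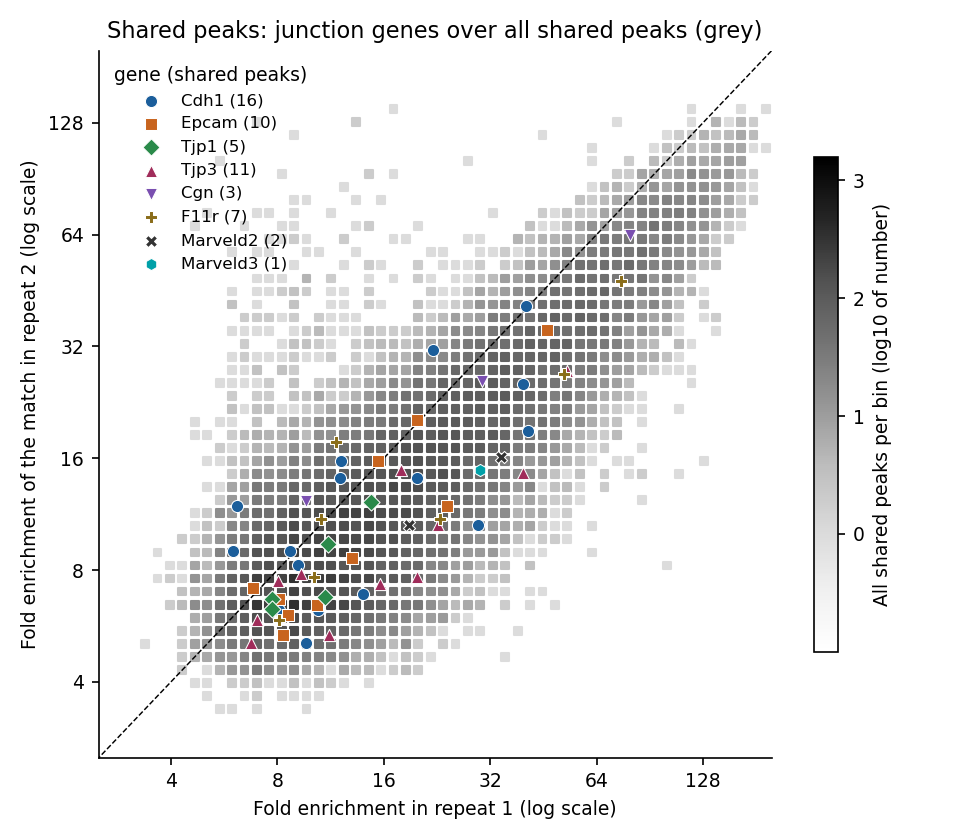
Fold enrichment of shared peaks in repeat 1 (x axis) and of their matches in repeat 2 (y axis), both on log scales. Grey squares are bins of all 43851 shared peaks, darker for more peaks; symbols are the 55 shared peaks at 8 of the 9 genes, and the dashed line marks equal values. The peaks of the 9 genes lie within the grey cloud, the top ones at Cgn (79.7-fold and 64.0-fold) and F11r (74.9-fold and 47.9-fold).

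Repeat 2 gave lower fold enrichment than repeat 1 at 42 of the 55 shared peaks, against 77.5% of all shared peaks. The median log2 ratio of repeat 2 to repeat 1 was -0.40 at the 9 genes and -0.39 overall. Tags scaled to the filtered ChIP depth were lower in repeat 2 at 33 of 55, against 70.3% of all. Genes differed here too. At Tjp3 all 11 shared peaks had lower fold enrichment in repeat 2, with a median log2 ratio of -0.94, and depth-scaled tags were lower at 10 of 11. For the peak near Mrpl54 the ratio of depth-scaled tags was 0.301 (95% interval 0.220 to 0.408), and for the peak at the Tjp3 starts 0.565 (0.438 to 0.726). At Cdh1 fold enrichment was lower at 9 of 16, and depth-scaled tags were lower at 4 of 16. Of these 16 peaks, 4 were set against the 2 joined intervals of repeat 2 described above. With the peaks of each joined interval summed, a comparison added after the data were seen, depth-scaled tags were lower in repeat 2 at 6 of 14 intervals of Cdh1, at 35 of 53 over the 9 genes and at 72.0% of all intervals. Its strongest peak had a ratio of 1.11 (0.896 to 1.39), and the strongest of Cgn had 0.833 (0.693 to 1.00). The intervals cover counting error only, the peak limits differ between the repeats, and with 1 ChIP library per repeat no test of these differences was possible.

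**Figure D4:**
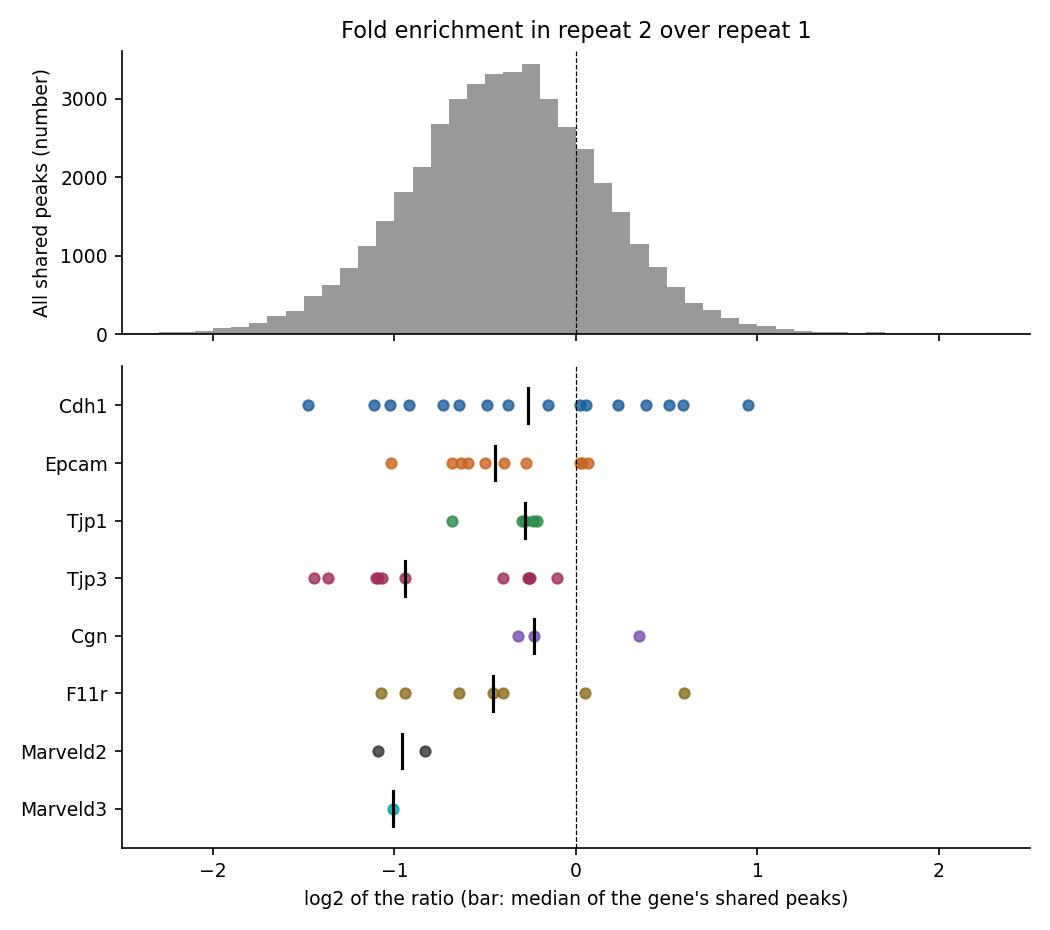
Upper panel, number of all shared peaks (y axis) by the log2 ratio of fold enrichment in repeat 2 over repeat 1 (x axis). Lower panel, the same ratio for each shared peak of the 8 genes that had one, with a bar at the median of the gene. All 11 points of Tjp3 lie below 0, while the 16 of Cdh1 lie on both sides.

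Other genes of adherens and tight junctions were counted from a list of 30, among them catenins, nectins, JAM proteins and polarity proteins. All 30 had a shared peak by the same rule, against 80.6% of all genes, with a median of 6.5 and a range of 1 (Vcl, Nectin3 and Mpdz) to 26 (Magi1). Inside the gene 24 of 30 had one, against 44.8%, and their median length was 66.6 kb. Within the top 10% of both lists, 12 of 30 had a shared peak, against 31.7%. The strongest was inside Jup, the gene of plakoglobin, a catenin of adherens junctions and desmosomes (762 and 612 tags, 157-fold and 115-fold). It was followed by a peak 14.04 kb from Pard6b, a cell polarity gene (148-fold and 96.9-fold). Peaks nearest to other genes came next: near Apoc1, 29.5 kb from Nectin2 (109-fold and 93.1-fold), and near Dedd, 47.9 kb from Nectin4 (99.8-fold and 87.1-fold). The following summit was nearest to Tcte2 but only 1.08 kb from Afdn, the gene of the nectin-binding protein afadin (115-fold and 72.1-fold). The interval of this peak, 13758775 to 13760888, ran over the lower-coordinate end of Afdn (13760391), a gene on the plus strand. The peak of Cxadr, a JAM-like membrane protein gene, lay 36.5 kb from it (87.9-fold and 52.1-fold). Each of these 6 exceeded every peak in the windows of the 9 genes in both repeats, save that of Cxadr, whose 52.1-fold in repeat 2 was below the 64.0-fold of Cgn. With windows of 10 kb, 7 of the 9 genes and 27 of the 30 had a shared peak, against 64.5% of all genes.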

How the data were processed

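Tfcp2l1 ChIP and input libraries of 2 repeats were represented by 2 peak lists, 1 per repeat and not pooled. Per the file headers, MACS 1.4.1 called each list from the ChIP library against the input of its repeat at a p threshold of 1e-05, with a tag size of 35 bp, d of 200 bp and at most 2 duplicate tags per position. CASAVA 1.8.2 is named in the submitters' processing notes; no source used here states the aligner. For every peak the authors deposited a raw count of ChIP tags, a fold enrichment (a ratio to background estimated from input), a score (the negative log10 of the p-value, multiplied by 10) and an FDR in percent.

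The processing notes name mm9, but peaks on chromosome Y reach position 90784139, close to the end of the last GRCm38 gene at 90745083, so genes and promoters were taken from RefSeq tables of GRCm38.p6. Summits were placed at start plus summit minus 1. Matches used the largest overlap. Peaks were ranked by the mean of their ranks of fold enrichment in both lists, and the 3 best of each gene are given (for Epcam, 1; its downstream peaks are counted but not described here), together with the 6 best of the other junction genes. Peak matching and window counts were tested on simulated data. Binomial intervals are Clopper-Pearson (scipy 1.17.1, Python 3.11.15). The 9 genes, the list of 30 and the rules were chosen with earlier results of these data known, so counts are set beside all genes without a test. The top 10% of both lists and the comparison of the repeats were added after the peaks were seen.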

Additional observations from a re-analysis of the deposited data

How the results depend on the processing

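The number of the 9 genes with a shared peak was 7 to 9 under every alternative, against 8: 7 within 10 kb, inside the gene, or where the gene was the nearest (Ocln and Marveld2 without one), and 9 within 100 kb. The strongest shared peak of each of the 8 genes was the same by tags or score. The number of shared peaks at the genes, 55, became 34 within 10 kb, 93 within 100 kb, 28 inside the genes, 27 with fold enrichment of at least 10 in both lists and 31 with a score of at least 100. The shared percentage of repeat 1 became 84.8% inside the genes and 62.2% with summits within 100 bp, where that of repeat 2 became 75.4%. Median fold enrichment in repeat 1 became 13.5 with summits within 100 bp, 14 with reciprocal overlap of 50%, 24.2 with the fold limit and 22.7 with the score limit. In repeat 2 it became 11.9 by nearest gene, 15.9 with the fold limit and 15.3 with the score limit. Of the 30 other junction genes, 24 to 30 had a shared peak. For single genes, 33 of 90 counts moved by more than 1.5 times, mostly with the window and the limits. Peaks of 1 repeat alone, shared or not, numbered 74 and 61, at 9 and 8 of the 9 genes, with medians of 10.4 and 9.03, and gave Ocln 1 and 0, Tjp1 6 and 9, Cgn 6 and 4 and F11r 11 and 7 peaks. The causes were not tested, apart from the limits, which remove weak peaks by construction.

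No paired analysis was possible because each input was used only within the calling of its own list. The peak at Ocln had 21 tags in repeat 1, the lowest count at these genes, and was not called in repeat 2, which had more filtered tags; the part of depth in this was not tested. Distance assigns peaks to genes without evidence of contact, and starts of Cdh1 and Marveld3 were not used here.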

Other observations

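The Grainyhead motif AACCGGTT was in 0.437% of the 5040 promoter windows under a shared peak and in 0.0986% of the 16222 others, that is in 22 and 16 windows. The looser pattern (CNNG, any 6 bases, CNNG) was in 88.6% and 70.9% of the same windows. These shares describe promoters of all genes, and base composition was not matched between the groups.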
